A study of Mus musculus with 31 samples.

Results

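The 3 zinc-finger gene clusters described here were taken by position, as every CpG site that any library listed within chr2:174900000-177900000, chr4:145000000-147500000 or chr13:62200000-67900000 of the mouse build mm9. They hold 5775 of the 1419929 listed sites, in 1822 of 494217 tiles of 100 bp. The chromosome 2 cluster accounts for 266 tiles, the chromosome 4 cluster for 531 and the chromosome 13 cluster for 1025. A tile counts as measured in a library where it has at least 1 site with at least 5 reads, and its level is the percentage of methylated reads over such sites. Read numbers are summed over sites, so a read that covers several sites counts at each of them. Of the 1822 tiles, 1538 held a site with 5 reads in some library. Only 260, called common tiles, were measured in each stage by 2 or more libraries, and 64 in all 31 libraries. The chromosome 2 cluster has 28 common tiles, the chromosome 4 cluster 58 and the chromosome 13 cluster the rest.

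The oocytes came from B6D2F1 (C57BL/6 x DBA/2) mice, with no treatment or genotype named and no age given, and were profiled by reduced representation bisulfite sequencing. This assay cuts DNA with MspI at CCGG and reads mostly CpG-rich fragments. The 9 stages are Type1 and Type2 (primordial follicles), Type3a and Type3b (primary), Type4, Type5a and Type5b (secondary), and Type6 and Type7 (antral). There were 5 libraries each of Type4 and Type5a, and 3 of each remaining stage. A library held 7949652 to 60361665 reads over its sites. The totals were 700 to 9346 in the chromosome 2 cluster, 7561 to 58755 in the chromosome 4 cluster and 21639 to 209594 in the chromosome 13 cluster. In 9 libraries, CpG-dense tiles of the X chromosome lay above CpG-dense autosomal tiles, a difference called the X measure below. Among antral follicles these were replicates 1 and 2 of Type6, and among secondary follicles replicates 1, 2 and 5 of Type4 and 5 and 7 of Type5a. The remaining 2 were replicate 1 of Type3a and replicate 3 of Type1.

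KRAB zinc-finger proteins bind DNA through arrays of zinc fingers and recruit the corepressor TRIM28, which brings silencing histone marks and DNA methylation to retrotransposons and to some imprinted regions. Their genes multiplied by tandem duplication and sit in dense clusters of close copies. Mouse oocytes start growth with little DNA methylation and acquire it before ovulation, mostly over transcribed gene bodies, while CpG islands that are not transcribed through stay free of it.

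The gene content was read from RefSeq's GRCm38.p6 annotation, between the nearest genes on either side whose promoters could be found in the mm9 sites by their CpG spacing and flanking bases. Between Edn3 and Fam217b on chromosome 2 lie 34 protein-coding genes, 9 of them named Zfp and 22 named Gm or Rik. Between Tnfrsf8 and Draxin on chromosome 4 lie 29, of which 16 are named Zfp. Between Gm3325 and Gm10037 on chromosome 13 lie 74, of which 29 are named Zfp. The windows also hold genes with no zinc-finger name, such as, on chromosome 13, Ptch1, the Hedgehog receptor, and Fbp2, a fructose-bisphosphatase. On chromosome 2, Phactr3 and Sycp2 are the last genes before Fam217b, and their mm9 positions were not determined. Which of the genes encode a KRAB domain was not analysed here.

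Of 32851 promoter sequences, 32 from these chromosomes matched mm9 sites inside the clusters. Of these, 28 promoters of 26 genes matched at 1 place and in the order of the annotation. Only the clusters and their flanks were searched, so such a place need not be the only one in the genome. A further 10 promoters of other chromosomes also matched the sites searched. The bases upstream of the start site are shown for 3 zinc-finger genes with promoters low in nearly all libraries, and for Cdc14b, a cell-cycle phosphatase gene within the chromosome 13 cluster whose promoter was methylated in late stages. The sequences are 250 bases each, 5′ to 3′ on the gene's own strand, from RefSeq with GRCm38.p6 coordinates, and the capitals mark CpG sites.
Zfp982, chr4:147442864-147443113, plus strand: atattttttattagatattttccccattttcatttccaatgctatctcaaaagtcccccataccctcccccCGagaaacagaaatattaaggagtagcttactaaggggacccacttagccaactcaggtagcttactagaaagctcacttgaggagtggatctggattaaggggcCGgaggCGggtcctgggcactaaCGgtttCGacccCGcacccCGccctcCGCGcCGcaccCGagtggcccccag
Zfp935, chr13:62466813-62467062, minus strand: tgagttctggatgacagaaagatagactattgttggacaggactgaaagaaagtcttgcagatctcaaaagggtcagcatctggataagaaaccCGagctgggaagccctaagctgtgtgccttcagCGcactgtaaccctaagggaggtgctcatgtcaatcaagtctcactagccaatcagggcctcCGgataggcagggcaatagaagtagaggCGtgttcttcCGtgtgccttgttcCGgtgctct
Zfp367, chr13:64153200-64153449, minus strand: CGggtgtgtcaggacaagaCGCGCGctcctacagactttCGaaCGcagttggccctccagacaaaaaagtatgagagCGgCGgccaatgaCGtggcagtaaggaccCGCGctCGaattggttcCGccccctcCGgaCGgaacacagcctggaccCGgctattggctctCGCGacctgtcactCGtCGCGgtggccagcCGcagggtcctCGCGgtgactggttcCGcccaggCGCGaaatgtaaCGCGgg
Cdc14b, chr13:64248539-64248788, minus strand: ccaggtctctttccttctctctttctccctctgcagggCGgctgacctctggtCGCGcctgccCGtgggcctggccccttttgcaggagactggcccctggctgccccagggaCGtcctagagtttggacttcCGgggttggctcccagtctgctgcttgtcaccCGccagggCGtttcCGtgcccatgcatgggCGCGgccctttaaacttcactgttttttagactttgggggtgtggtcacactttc

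The zinc-finger promoters that could be placed, none of them on chromosome 2, were close to unmethylated in most libraries. Placement needed at least 4 listed sites, so promoters with fewer could not be seen. The Zfp640 promoter reached 21.6% in a Type4 library, and that of Zfp759 was at 21.7% in the 1 Type3a library with a value. Both had a median of 0%, over 12 and 4 libraries. The Zfp982 promoter ranged from 0 to 5.48% over 24 libraries with at least 3 measured sites, with a median of 0. It stood at 4.29% in the 1 Type7 library with a value and at 0 and 0.198% in the 2 Type1 libraries. Zfp367 lies between Fbp2 and Mfsd14b, where no other gene is named Zfp. Its promoter, with 29 CpG sites in the bases shown, was read in all 31 libraries and never passed 3.47%. It was 0% in each of the 3 Type7 libraries and 0.843% ± 0.906 (SD, n = 3) in Type1. A second annotated Zfp367 promoter, read in 30 libraries, had a median of 0% and a highest value of 18.5%, in a Type2 library. The Zfp935 promoter had a median of 0.719% over 23 libraries. Its highest value was 18.0%, from 283 reads of Type7 replicate 1, against 0 to 0.848% in the Type1 libraries. No other Type7 library had a value there. A tile 121 bp downstream of the Zfp935 start, chr13:62568001-62568100, was 0% in all 3 Type7 libraries, at 105 to 557 reads.

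Of the 28 promoters, 18 had values in at least 10 libraries, and the median was below 5% for 15 of these. Over all 28, 376 of 419 library values were below 10%, including 35 of the 39 values in Type7. The 3 promoters with a median of 5% or more were those of genes named Gm. The Gm46428 promoter, with 5 CpG sites in 300 bases, had a median of 10% and reached 48.4%. The promoters of Gm32476 and Gm46425 overlap and share 4 matched sites, with a median of 6.27% and a highest value of 58.1%. The promoters of Fv1, a retrovirus restriction gene, and Miip share sites and reached 41.0%, with a median of 0. The Cdc14b promoter shares sites with that of 1810034E14Rik. There, 4 libraries of 4 stages had at least 3 measured sites. Summed over 6 sites, the level was 100% in Type7 replicate 2 (48 of 48 counts) and 82.5% in Type6 replicate 1 (33 of 40). It was 0% in Type1 replicate 1 (0 of 179 counts) and in Type2 replicate 1 (0 of 36). With 1 library a stage, this difference has no replicate check. A read over several of the sites counts at each, so the reads behind these counts were fewer.

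**Figure D1:**
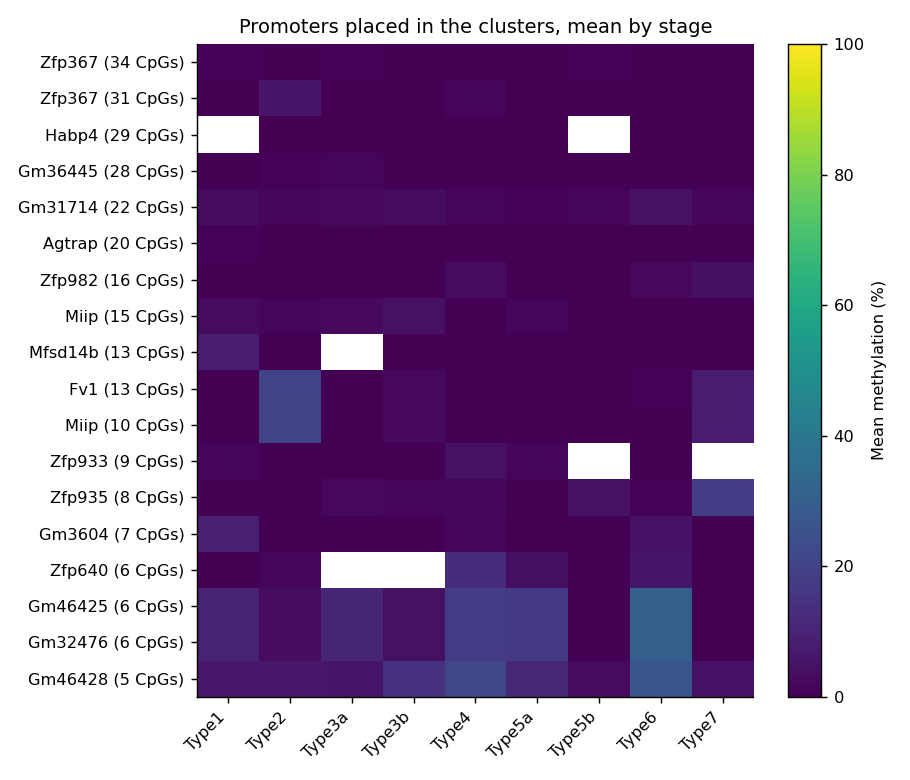
Mean methylation (colour, in percent) of the 18 promoters with a value in at least 10 libraries, 1 row each with its number of CpG sites in 300 bases, by stage from Type1 to Type7; white cells have no value. Most rows stay dark at all stages, and the 3 bottom rows reach intermediate levels in Type4 and Type6.

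Mean levels were higher at the end of oocyte growth than at its start in all 3 clusters. Over the common tiles that a library measured, the chromosome 2 cluster averaged 14.3% ± 9.87 (SD, n = 3) at the Type1 stage, 6.84% ± 3.75 at Type2, 24.95% ± 9.28 at Type5b, 33.3% ± 5.05 at Type6 and 39.1% ± 0.572 at Type7. The chromosome 4 cluster stood at 17.6% ± 6.85, 19.0% ± 1.15, 29.2% ± 2.28, 36.1% ± 0.555 and 33.3% ± 2.73 at the same 5 stages. The chromosome 13 cluster stood at 20.7% ± 5.59, 21.0% ± 0.720, 29.9% ± 3.74, 41.5% ± 1.97 and 33.7% ± 2.60. For the rest of the autosomes the values were 15.8% ± 4.54, 13.4% ± 1.37, 30.2% ± 1.72, 40.5% ± 2.35 and 37.2% ± 0.368. These means are descriptions with no test, since the clusters were chosen with results of these data known, and libraries measured different subsets of the common tiles.

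Between Type7 and Type1 the libraries did not overlap in any cluster. The difference was 24.8 points on chromosome 2, 15.7 on chromosome 4 and 12.98 on chromosome 13, beside 21.4 for the other autosomes. On chromosome 2, 8 of the 28 common tiles lie in the last 100-kb window, which differed by 68.3 points. The difference of that cluster therefore leans on its right end and does not describe the cluster evenly. With reads pooled over tiles, the difference was 4.00 points on chromosome 4 and 6.69 on chromosome 13. Without tiles of repeated CpG spacing it was 40.1 points on chromosome 2 and 23.7 on chromosome 4. Over the 1 tile measured in every library on chromosome 2 it was 98.0 points. Relative to the other autosomal tiles of the same library, the chromosome 2 cluster lay 1.87 ± 0.806 points above in Type7 and 1.48 ± 5.34 points below in Type1. The chromosome 13 cluster lay 3.55 ± 2.84 points below in Type7, in 3 of 3 libraries, and 4.88 ± 1.71 points above in Type1, in 3 of 3 libraries.

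The chromosome 13 cluster was lower in Type7 than in Type6. Its level was 34.3, 35.8 and 30.8% in the Type7 libraries, against 40.6, 43.8 and 40.2% in the Type6 libraries, and the stages did not overlap. The other autosomes also differed without overlap, by 3.31 points, while the chromosome 13 difference was 7.87 points. In Type6, replicates 1 and 2 have a positive X measure, and its part in the difference was not tested.

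Libraries of 1 stage differed in level, in some stages along with the X measure. In Type4, the chromosome 13 cluster was at 35.6, 41.1 and 32.5% in the 3 libraries with an X measure above 0, against 23.3 and 24.1% in the others. In Type5a it was at 31.3 and 33.8% in the 2 such libraries, against 24.6, 21.7 and 24.8% in the others. The other autosomes of the Type4 libraries were at 28.4, 36.2 and 28.5%, against 17.6 and 16.5%. Other values overlapped. The chromosome 2 cluster in Type5a was at 7.45 and 20.02% in the 2 libraries with an X measure above 0, against 13.5, 8.16 and 2.04% in the others. In Type6, replicate 1, with a positive X measure, was at 29.9% on chromosome 2 and 35.4% on chromosome 4, against 30.9% and 36.3% in replicate 3. On chromosome 2, Type1 stood at 14.3% over all libraries and at 8.90% without replicate 3. The source of these differences was not tested.

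**Figure D2:**
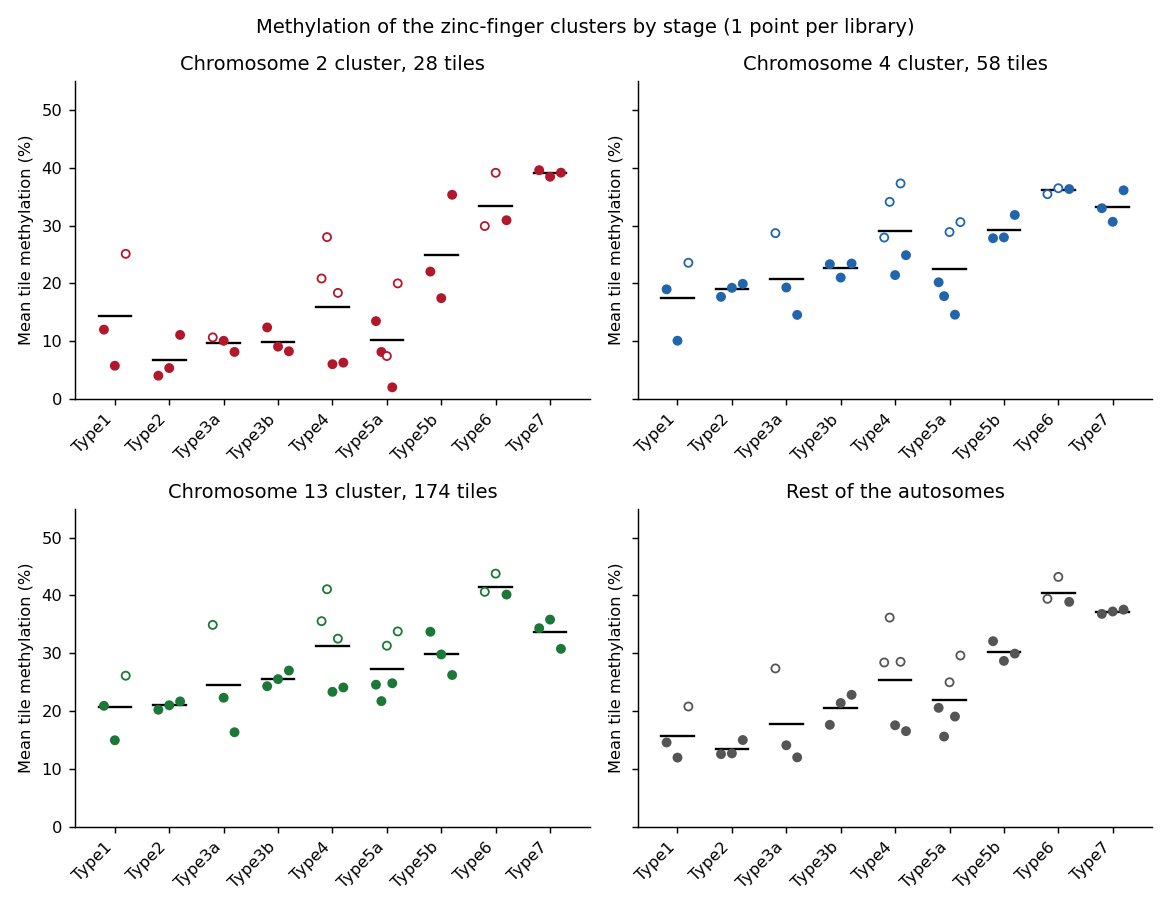
Mean methylation of common tiles (vertical axis, percent) in each library (points) by stage from Type1 to Type7 for the 3 clusters and the rest of the autosomes; bars are stage means and open points are the 9 libraries with an X measure above 0. The chromosome 2 cluster reaches 39.1% in Type7, and the chromosome 13 cluster is at 33.7% in Type7 and at 41.5% in Type6.

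The means hide separate kinds of tile. Of the 260 common tiles, 55 (21.2%) were below 10% in every stage, as were 23.3% of the 81462 other autosomal common tiles. A gain of at least 50 points from Type1 to Type7 was seen in 25 tiles (9.62%), beside 19% of the other autosomal tiles. Levels were already at least 50% over Type1 and Type2 in 39 tiles (15%), beside 9.28%. In Type7, 126 tiles (48.5%) lay between 10 and 90%, beside 41.8%, and 24 (9.23%) were at 90% or more, beside 16.1%. The clusters differed from each other. The chromosome 2 cluster had 8 of 28 tiles with a gain of 50 points and 1 that started at 50% or more. The chromosome 4 cluster had 4 of 58 and 12 of 58, and the chromosome 13 cluster 13 (7.47%) and 26 (14.9%).

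**Figure D3:**
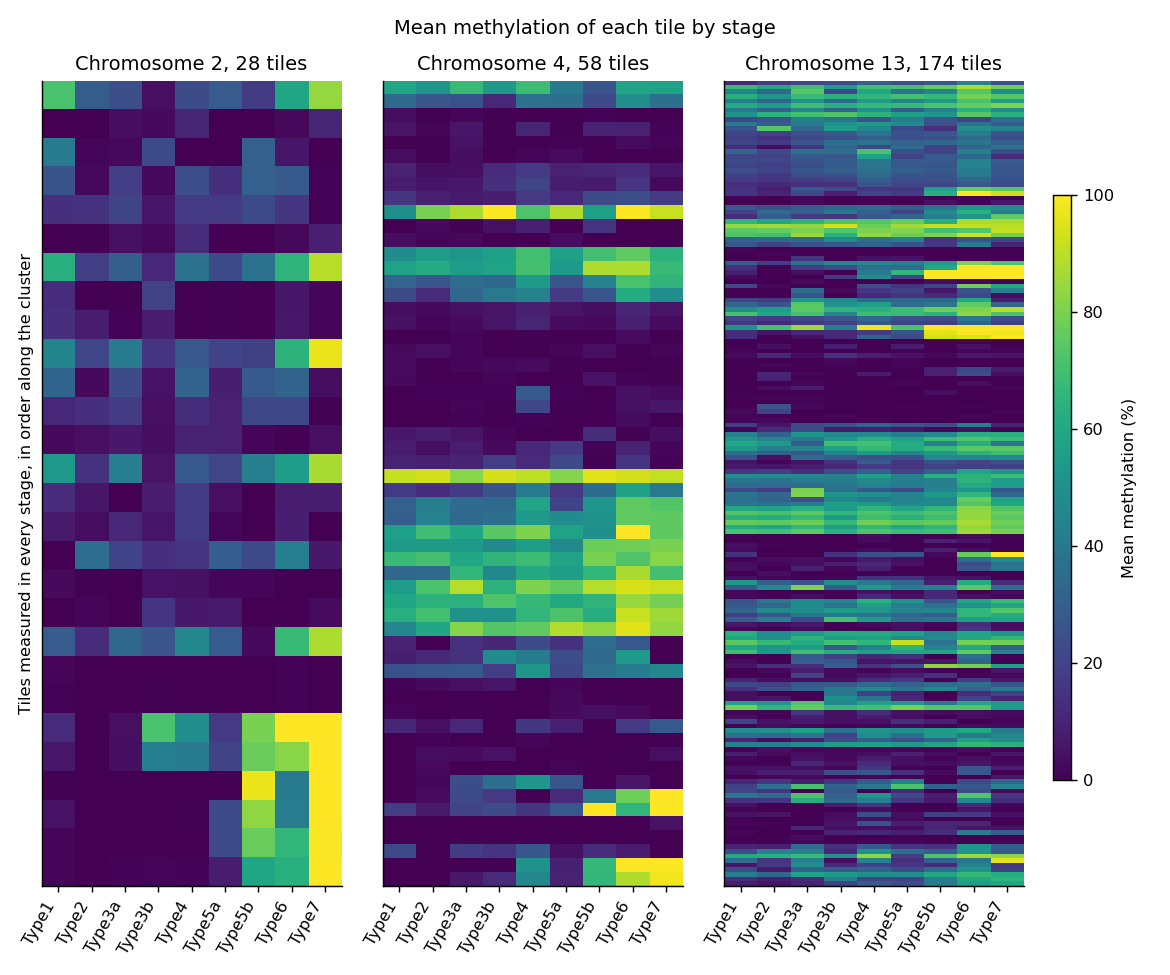
Mean methylation (colour, percent) of each common tile (rows, in order along each cluster) at the 9 stages from Type1 to Type7. The strongest gains lie at the end of the chromosome 2 cluster and in short runs elsewhere, beside blocks that are already methylated in Type1 and blocks that stay near 0.

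Most calls between the last and the first stage were gains. In the quasi-binomial test over all tiles with limma's moderated dispersion, calls needed a Benjamini-Hochberg adjusted p below 0.05 together with 20 points or more of difference. Of 465 member tiles tested, 80 were called higher in Type7 than in Type1 (17.2%), beside 22.9% of all tiles tested, and 1 was called lower, beside 0.32%. The median difference was 4.29 points over the members and 6.56 over all tiles. On chromosome 2, 13 of 60 tiles were called higher, on chromosome 4 17 of 116, and on chromosome 13 50 of 289. The total of 81 called tiles fell to 29 without Type1 replicate 1, 38 without Type1 replicate 3, 38 without Type7 replicate 1 and 44 without Type7 replicate 2. The Type7 and Type1 stages have 6 libraries in all.

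Gains in the chromosome 4 cluster were unevenly placed. To the right of Miip the cluster holds genes with no zinc-finger name, among them Mfn2, a mitochondrial fusion gene, Plod1, Clcn6 and Agtrap. There 12 of 32 tested tiles (37.5%) were called higher in Type7 than in Type1, beside 22.9% of all tiles tested. To the left of Miip, where most of the zinc-finger genes lie, 5 of 84 were (5.95%). Most of the 12 tiles adjoin another of them, so they are not 12 separate gains. The common tiles right of Miip averaged 26.8% ± 3.91 in Type7 and 2.885% ± 3.27 in Type1 (SD, n = 3 each). Those left of it averaged 35.4% ± 2.58 in Type7 and 22.7% ± 8.23 in Type1. Levels were already at least 50% over Type1 and Type2 in 12 of the 43 common tiles on the left. On the right this held for 0 of 15, so the 2 sides did not have the same room to gain. On chromosome 13 the shares were closer, with 10 of 56 tiles (17.9%) to the left of Fbp2, 21 of 104 (20.2%) between Fbp2 and Mfsd14b and 19 of 129 (14.7%) to the right of Mfsd14b. The borders were chosen after the values were seen, and these shares have no test.

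At the largest gains, tiles were fully methylated in Type7 and at or near 0 in Type1. At chr4:147415701-147415800, 2829 bp upstream of the Clcn6 start, all 3 Type7 libraries were at 100%, at 41 to 152 reads, against 0% in all 3 Type1 libraries, at 30 to 145 reads (adjusted p = 1.88e-09, quasi-binomial test with limma moderation). Clcn6 encodes a chloride and proton exchanger of endosomes. Type2 was at 0% in all 3 libraries, and in Type5b both libraries with a value were at 98.1 and 100%, while the 4 Type5a libraries had 0, 1.09, 0 and 0%. Type5b was 98.8 points higher than Type5a (adjusted p = 1.58e-07). Type6 was lower, at 95.5, 77.2 and 61.9%. The tile was called 20.9 points lower in Type6 than in Type5b (adjusted p = 0.0147) and 21.8 points higher in Type7 than in Type6 (adjusted p = 0.000985). Without Type6 replicate 3 these differences were -12.7 and 13.7 points, under the 20 points a call needs.

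At chr13:62659901-62660000, between the promoters of Zfp935 and Fbp2, the level was 100% in all 3 Type7 libraries, at 44 to 160 reads, against 0% in both Type1 libraries with a value (adjusted p = 1.91e-09). It was at 70.3% in the 1 Type6 library with a value, 0% in both Type5b libraries with one, and at most 0.690% in any earlier library. This tile holds a site of repeated CpG spacing, so its reads may come from a copy. At chr13:62951901-62952000, 7809 bp downstream of the Fbp2 start, 3 of 3 Type5b libraries were at 100%, against 70.6, 2.44, 0, 0 and 28.6% in Type5a (adjusted p = 0.000483), and it was at 100% in all Type6 and Type7 libraries. Type4 libraries already ranged from 0 to 95.7% there. At chr13:64298901-64299000, between Habp4 and Cdc14b, both Type7 libraries with a value were at 100%, against 0% in both Type1 libraries (adjusted p = 0.00186). In Type4 it was at 71.6, 100 and 71.0% in the 3 libraries with an X measure above 0, against 0% in the other 2.

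At the right end of the chromosome 2 cluster, chr2:177876801-177876900 was at 100% in all 3 Type7 libraries, against 0, 0 and 2.17% in Type1 (adjusted p = 3.67e-06). In Type5b it was at 93.9 and 100%, against 0% in all 3 Type5a libraries with a value (adjusted p = 2.99e-05). The tile rests on a single CpG site. In Type6, 1 library was at 0% (13 reads) and 1 at 81.8% (33 reads), and the calls of Type6 against Type5b and of Type7 against Type6 each rest on these 2 libraries. Leaving out any 1 Type7 library ends the call of Type7 against Type6, with adjusted p from 0.073 to 0.352.

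The only tile called lower in Type7 than in Type1 was chr13:66158601-66158700. It was at 44.3, 54.6 and 67.1% in Type7, against 86.8, 76.3 and 74.1% in Type1 (difference -23.7 points, adjusted p = 0.0313). The stages did not overlap. The call is lost without Type1 replicate 1 (adjusted p = 0.221), Type7 replicate 1 (0.189) or Type7 replicate 2 (0.065), and with limma on tile levels (0.11).

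Windows of 100 kb showed where gains clustered. Of 112 windows in the clusters, 67 had a common tile and 18 had the 5 common tiles needed for the test, 12 of them on chromosome 13, 5 on chromosome 4 and 1 on chromosome 2. With limma over 6577 autosomal windows, 7 of the 18 were called higher in Type7 than in Type1 (38.9%), beside 42.6% of all windows, and 0 lower, beside 0.0912%. Calls needed an adjusted p below 0.05 and 10 points or more. At an unadjusted p under 0.05 the share was 44.4% of the 18.

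The chromosome 2 window, chr2:177800001-177900000, was at 72.1% ± 4.82 in Type7 and 3.87% ± 0.231 in Type1 (SD, n = 3 each), a difference of 68.3 points (SE 6.44, adjusted p = 7.97e-09). Relative to the mean of the autosomes in the same libraries the gain was 46.9 points (SE 6.67, adjusted p = 3.39e-06). It is the last window of the cluster, and no promoter was placed inside it. Its level rests on 8 common tiles, and its called tiles lay at chr2:177859701-177859900 and chr2:177876801-177877200.

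On chromosome 13, neighbouring windows held the highest and the lowest difference of the 18. The window chr13:62900001-63000000, which contains the Fbp2 start, was at 80.4% ± 9.48 in Type7 and 10.4% ± 7.10 in Type1 (70.0 points, SE 12.4, adjusted p = 4.98e-05). It rests on 5 common tiles, and its called tiles lay at chr13:62904601-62904700 and chr13:62951701-62952000. The Fbp2 promoter was at 0% in the 2 Type7 libraries with a value. The preceding window, chr13:62800001-62900000, was at 4.20% ± 3.68 in Type7 and 12.0% ± 5.78 in Type1 (-7.78 points, SE 7.58, adjusted p = 0.467), which did not pass. Relative to the autosomes, the same window was 27.3 points lower (SE 6.50, adjusted p = 0.00132). On chromosome 4 the largest difference was 36.5 points (SE 13.2, adjusted p = 0.0295) at chr4:147400001-147500000, and the smallest -0.236 points (SE 5.91, adjusted p = 0.984) at chr4:145300001-145400000.

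Measured against the autosomal mean, 2 of the 18 windows gained more (11.1%, beside 19.6% of all windows) and 5 gained less (27.8%, beside 34.5%). The 5 that gained less were chr13:62800001-62900000, chr13:64200001-64300000, chr13:66300001-66400000, chr13:66900001-67000000 and chr4:145300001-145400000. The window chr13:64200001-64300000 contains the Zfp367 and Habp4 starts and was at 0.253% ± 0.437 in Type7 and 0.296% ± 0.233 in Type1. Its level rests on 6 common tiles, which do not include the tile at 64298901 described above. Other windows were partly methylated at both ends of growth. The window chr13:62300001-62400000 was at 58.4% ± 3.99 in Type7 and 47.9% ± 1.80 in Type1, and its difference did not pass (adjusted p = 0.403).

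**Figure D4:**
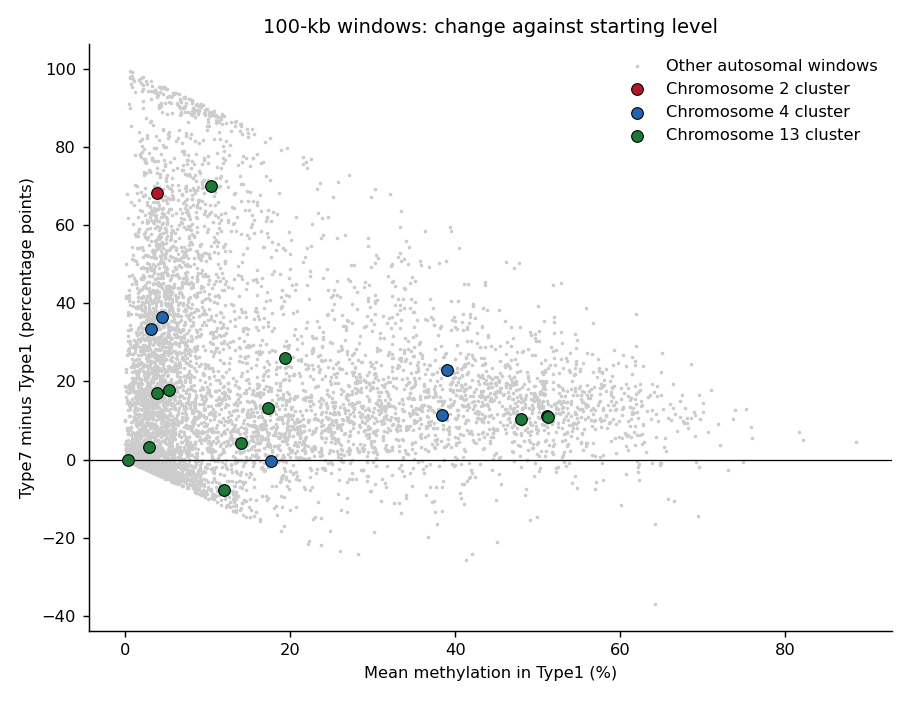
Difference of Type7 over Type1 (vertical axis, percentage points) against the mean level in Type1 (horizontal axis, percent) for 100-kb autosomal windows; grey points are the rest of the autosomes and coloured points the 18 windows of the clusters. The chromosome 2 window and 1 chromosome 13 window differ by 68.3 and 70.0 points, and the other 16 lie between -7.78 and 36.5 points.

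Between Type5b and Type5a, the adjacent stages with the most calls over all tiles, 26 of 523 member tiles were called higher (4.97%), beside 7.18% of all tiles, and 3 lower, beside 0.376%. On chromosome 4, 10 of 130 were called higher (7.69%), and right of Miip 8 of 44. The 29 called tiles fell to 6 without Type5b replicate 1 and 7 without Type5b replicate 3. By windows with limma, 3 of 18 were called higher (16.7%, beside 17.7%) and 0 lower (beside 0.0608%), and 22.2% had an unadjusted p under 0.05. They were chr2:177800001-177900000 (44.8 points, adjusted p = 6.57e-06), chr13:63600001-63700000 (27.2 points, adjusted p = 0.00668), which contains the Ptch1 start, and chr4:147300001-147400000 (25.8 points, adjusted p = 0.0145). Relative to the autosomes, 2 of these were called higher (11.1%, beside 10.6%) and 0 lower (beside 4.74%), the chromosome 2 window at 36.6 points and the Ptch1 window at 18.9 points. The Ptch1 window rests on 6 common tiles, and its called tiles lay at chr13:63614901-63615100 and chr13:63634001-63634100. The Ptch1 promoter had no value in Type5a or Type5b.

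Between Type6 and Type5b, 6 of 483 member tiles were called higher (1.24%, beside 3.49%) and 3 lower (beside 0.286%). Between Type7 and Type6, 5 of 473 were called higher (1.06%, beside 0.787%) and 1 lower (beside 0.514%). The 9 called tiles of Type6 against Type5b became 3 without Type5b replicate 1, 4 without Type5b replicate 2 and 4 without Type6 replicate 1. The 6 of Type7 against Type6 became 3 without Type6 replicate 2, 1 without Type7 replicate 1 and 2 without Type7 replicate 2. By windows, 1 of 18 was called higher in Type6 than in Type5b (5.56%, beside 5.67%), chr13:65300001-65400000, and 0 lower (beside 0.0152%). It was at 19.1% ± 6.35 in Type6 and 2.81% ± 2.43 in Type5b (16.2 points, adjusted p = 0.0424), a call lost without Type5b replicate 2, Type5b replicate 3, Type6 replicate 1 or Type6 replicate 3. Windows called were 0 in Type7 against Type6 with limma (beside 0.471% of all windows higher and 0.0304% lower), where 27.8% of the 18 had an unadjusted p under 0.05. Relative to the autosomes, 0 of 18 passed in Type6 against Type5b (beside 0.821% higher and 0.076% lower) and 0 in Type7 against Type6 (beside 1.25% higher and 0.182% lower). An unadjusted p under 0.05 was found for 22.2% and 16.7% of the 18.

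The tile called lower in Type7 than in Type6 was chr13:67372601-67372700, 2721 bp upstream of the start of Zfp458. It was at 29.4, 32.0 and 34.9% in Type7, against 67.8, 72.2 and 58.8% in Type6 (adjusted p = 0.0381). The stages did not overlap, yet leaving out any 1 of the 5 libraries Type6 replicate 1, Type6 replicate 2 and Type7 replicates 1, 2 and 3 ended the call (adjusted p from 0.0598 to 0.147). At chr13:65277401-65277500, between Mfsd14b and Gm36445, the 3 Type7 libraries were at 99.8, 100 and 90.5%, against 9.29 and 39.4% in the 2 Type6 libraries with a value (adjusted p = 0.00682). Without Type7 replicate 1 the adjusted p was 0.0976. At chr13:65360001-65360100, 17228 bp downstream of the Gm36445 start, the 2 Type7 libraries with a value were at 57.1 and 100%, against 0, 6.06 and 0% in Type6 (adjusted p = 0.000205). That p uses a dispersion shared by all stages, and the 2 Type7 libraries lay far apart. The stages did not overlap at either tile, and no library before Type6 passed 2.27% at the second. Earlier in growth few tiles were called. Type2 against Type1 had 1 of 581 member tiles higher (beside 0.00479%) and 0 lower (beside 0.0497%), with 9.12% at an unadjusted p under 0.05. Type4 against Type3b had 1 of 492 higher (beside 0.0826%) and 2 lower (beside 0.042%). Type5a against Type4 had 1 of 701 higher (beside 0.104%) and 0 lower (beside 0.0702%). The quasi-binomial test called 0 of 403 in Type3a against Type2 (beside 0.0204% higher and 0.00235% lower), where 7.2% had an unadjusted p under 0.05. It called 0 of 339 in Type3b against Type3a (beside 0.00988% higher and 0.0027% lower), where 6.49% did.

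A pair of tandem arrays on chromosome 13 supplied a large part of the reads. In the array at chr13:65097476-65098250, 56 listed sites repeat at a distance of 206 bp, with 36 pairs of sites of like context at that distance. In the array at chr13:62520213-62521577, 59 sites repeat at 212 bp, with 21 such pairs. Their reads made up medians of 25.1% and 19.8% of the reads of the chromosome 13 cluster. Such repeats may draw reads from more copies than the assembly holds.

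The arrays differed in level. The first averaged 64.9% ± 6.35 at the Type1 stage, 62.4% ± 3.05 at Type2, 67.4% ± 8.62 at Type5b, 83.9% ± 1.57 at Type6 and 74.7% ± 5.30 at Type7 (SD, n = 3 each). The second was at 21.4% ± 7.88, 18.5% ± 1.76, 26.4% ± 0.687, 40.5% ± 7.83 and 26.0% ± 0.981 at the same stages. In both arrays every Type7 library lay below every Type6 library. The first was at 77.0, 78.4 and 68.6% in Type7, against 83.5, 85.7 and 82.6% in Type6. Tile by tile, 0 of 8 and 0 of 12 array tiles were called between Type7 and Type6 by the quasi-binomial test (lowest adjusted p 0.0811 and 0.269), and in the second array the tile differences ran from -21.2 to 4.95 points. Between Type7 and Type1 none of the 20 array tiles tested was called, with adjusted p of at least 0.0533. Between Type6 and Type5b, 1 of 9 tiles of the first array was called higher, and 0 of 12 of the second. The called tile, chr13:65097401-65097500, rests on 1 site. It was at 100% in both Type6 libraries with a value, against 0 and 6.90% in Type5b (adjusted p = 0.029, quasi-binomial test). The 1 Type7 library with a value was at 0%. Outside the arrays, the most methylated early tile on chromosome 4, chr4:146577901-146578000, was at 93.7, 91.1 and 88.1% in Type7, against 89.8 and 92.7% in Type1.

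On chromosome 2 the assay met repeated MspI fragments. Among neighbouring listed sites, 18 pairs in the cluster lie 150 bp apart with GCCGG at one end and CCGGA at the other, of 6589 such pairs in all. In 5 of them the reads over all libraries were nearly equal from pair to pair, 878 to 908 at the GCCGG end and 140 to 164 at the other. In another 10 they were 205 to 254 and 110 to 158. Since such pairs may share reads, their reads were summed over the pairs of each group, and levels are given per library and not per pair.

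The 10 pairs, which start between positions 175142895 and 176513732, differed most at the GCCGG end. The level was 100 and 95.8% in the 2 Type7 libraries with reads, against 0.629 and 11.9% in the 2 Type1 libraries. It was 4.29% ± 3.30 (n = 3) in Type2, 33.7% ± 1.20 (n = 2) in Type5b and 62.3% ± 30.6 (n = 3) in Type6. Tiles at 3 of these pairs were called higher in Type7 than in Type1 by the quasi-binomial test, each on 1 site and 2 libraries a stage. They were chr2:175660301-175660400 (adjusted p = 0.00758), chr2:176400201-176400300 (adjusted p = 0.00658) and chr2:176513801-176513900 (adjusted p = 0.0201). As the pairs may share reads, these 3 calls may be 1 observation. All 3 are among the 13 tiles called higher on chromosome 2. The CCGGA end of the 10 pairs was at 51.2% ± 1.63 in Type7 and 14.5% ± 20.5 in Type1 (SD, n = 2 each).

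The 5 pairs start between positions 175013042 and 177559129. Their GCCGG end was at 52.7% ± 16.1 (n = 2) in Type1, 17.3% ± 18.9 (n = 3) in Type2, 12.9% ± 9.86 (n = 2) in Type3b, 18.0% ± 21.2 (n = 5) in Type5a, 23.1% ± 17.9 (n = 3) in Type5b, 61.6% ± 30.3 (n = 3) in Type6 and 90.03% ± 1.40 (n = 3) in Type7. The Type7 libraries were at 91.5, 89.8 and 88.7%, at 59 to 224 reads. The Type6 libraries ranged from 35.1 to 94.6%, wider than the Type7 libraries. The 2 Type1 libraries were at 41.4 and 64.1%, above the Type2 libraries, of which the highest was at 38.3%. Libraries of Type4 and Type5a overlapped them, with highest values of 59.6% and 51.1%. The 5 pairs were grouped by read numbers alone, and the pair at 177559129 differed from the others in some libraries. Its GCCGG end was at 0% in Type1 replicate 1, against 29.6 to 63.9% at the others. In Type5b replicate 3 it was at 0%, against 33.3 to 91.7%. The sum may therefore mix different copies.

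**Figure D5:**
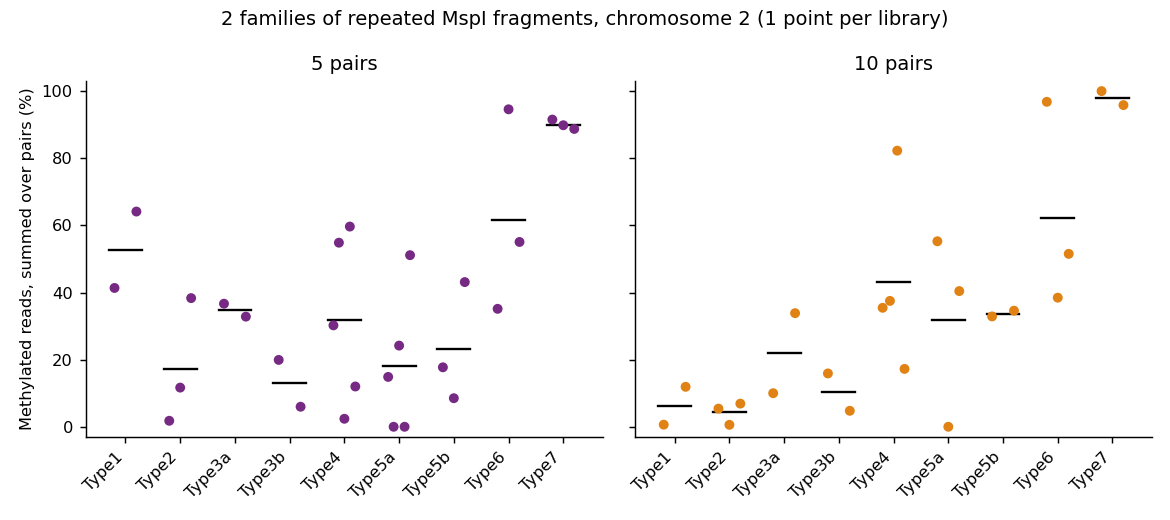
Percentage of methylated reads at the GCCGG end, summed over the 5 pairs (left) and the 10 pairs (right) of repeated MspI fragments on chromosome 2, in each library (points) by stage; bars are stage means, and libraries with fewer than 5 reads are not shown. Type7 libraries lie at 88.7% or higher in both, and libraries of Type4, Type5a and Type6 are widely spread.

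Tiles with repeated CpG spacing and tiles without it had different levels on chromosomes 2 and 4. Sites in runs of 5 sites whose spacing recurs in the same cluster made up 39.1% of listed sites on chromosome 2, 38.5% on chromosome 4 and 19.6% on chromosome 13, beside 9.94, 9.42 and 12.1% in other autosomal stretches of those lengths. On chromosome 2 the 8 common tiles with such a site averaged 2.58% ± 1.72 in Type7 and 15.2% ± 13.2 in Type1, and the 20 others 54.1% ± 1.78 in Type7 and 13.97% ± 10.8 in Type1 (SD, n = 3 each). On chromosome 4 the 21 tiles with such a site averaged 12.0% ± 2.69 in Type7 and 9.69% ± 6.60 in Type1, and the 37 others 45.5% ± 6.36 in Type7 and 21.8% ± 7.82 in Type1. On chromosome 13 the 72 tiles with such a site averaged 34.1% ± 2.79 in Type7 and 26.8% ± 6.38 in Type1, and the 102 others 33.3% ± 2.52 in Type7 and 16.2% ± 5.30 in Type1. A gain of at least 50 points between Type7 and Type1 was seen in 0 of the 101 common tiles with such a site and in 25 of the 159 without one (15.7%). Outside the common tiles, 3 adjoining tiles with such a site, from chr13:62659801 to 62660100, were called higher by 97.9, 100 and 82.1 points. The rule needs 5 sites within 300 bp, so it marks CpG-dense runs and can miss sparser copies. It did not mark the called tiles at the repeated MspI fragments of chromosome 2. Tiles without a marked site can therefore still be copies, and the parts played by CpG density and by copies were not separated.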

How the data were processed

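Bisulfite reads of 31 oocyte libraries were aligned by the authors with BSMAP 2.89 to mm9, per the submitters' processing notes. For trimming and methylation calling, the tools were not given in the sources used here. For every CpG site listed, the authors deposited counts of total and methylated reads and the methylation fraction. Levels were recomputed from the counts over sites with at least 5 reads. One label field names an embryo stage, against the sample titles, and was not used. Reads carry no molecular identifiers, and a read that covers several sites counts at each of them, so no limits are given for values of 0%. Incomplete conversion, MspI end repair and C-to-T variants can alter levels, and sequence copies may share reads.

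Tiles of 100 bp were tested with a quasi-binomial logistic model over all 31 libraries, with dispersion moderated by limma 3.58.1 and an F test adjusted by Benjamini-Hochberg over all tiles of the genome. Windows of 100 kb were tested with limma on the mean of at least 5 common tiles. The tile test was checked on simulated data, where slightly more unchanged tiles had small p-values than nominal. The simulation gave all tiles the same spread between libraries, narrower than at some named tiles, so it cannot show the error rate there. For the window test, only the formula was checked, against limma's own fit. Replicates are libraries of 1 stage. Nothing says that they came from separate animals, and the spread between libraries may be technical. Window p-values reflect that spread alone. Tile p-values use a dispersion shared by all 9 stages and floored at 1, the value for independent counts. A read over several sites of a tile enters as several counts. At tiles with several sites, tile p-values can therefore be too small even as statements about reads. At tiles where libraries of a stage agree, tile p-values reflect these counts. They need not reflect the spread within the 2 stages compared. In 41 pairs of libraries of 1 stage, 0.608 to 1.91% of sites had the same reads, and none was treated as a duplicate.

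Named tiles are, per main comparison and cluster, up to 3 called tiles a direction with the largest difference and no overlap between stages, in genome order where tied, plus the common tiles and windows at the extremes. The members and lists were chosen with earlier results of these data known. The promoter matches, the stretches, the fragment pairs and the arrays were chosen after their values were seen. Promoters were placed by matching CpG spacing and flanking bases of RefSeq's GRCm38.p6 promoters to the mm9 sites, with no conversion of coordinates. Work was done in Python 3.11.15 (numpy 2.4.6, pandas 2.3.3, matplotlib 3.10.9) and R 4.3.3.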

Additional observations from a re-analysis of the deposited data

Results flagged for a closer look

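In 8 of 52 groups of 4 or 5 libraries at named tiles, 1 library was marked by Dixon's test at the 95% level. The test divides the gap to the next library by the range of the group. Where all other libraries share the same level, it marks any differing value, however small. Such a mark does not show that the library stood far from the others. Chance alone can also mark groups, and no cause was tested.

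The widest gaps were at chr4:147482201-147482300, where Type4 replicate 2 was at 56.0% and the next library at 0%, and at chr4:147378601-147378700, where Type5a replicate 7 was at 48.6% and the next at 0%. Both libraries have an X measure above 0. At chr13:65360101-65360200, Type5a replicate 1 was at 5.13% and the next at 0.926%. This was the only marked group in which the other libraries were not all at the same level. The other 5 gaps were of under 3 points and each had the next library at 0%. They were Type4 replicate 6 at 1.67% and Type5a replicate 5 at 1.09% at chr4:147415701-147415800, Type4 replicate 4 at 2.33% at chr2:177876901-177877000, and Type4 replicate 1 at 0.193% and Type5a replicate 7 at 2.29% at chr13:62568001-62568100.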

How the results depend on the processing

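No difference changed sign. For the named tiles, 104 of the alternatives ended a call and the others kept it. Counts below are totals of calls under each setting, not shares of the calls in the main setting, which stand in parentheses. For Type7 against Type1 (81), the member tiles called were 52 with at least 10 reads per site, 36 with at least 3 sites per tile and 42 without the libraries with an X measure above 0. For Type5b against Type5a (29), these were 18 with 10 reads, 13 with 3 sites and 16 in a fit of the 2 stages alone. For Type6 against Type5b (9), they were 3 with 10 reads, 5 with 3 sites, 5 with 200-bp tiles, 3 with at most 10 reads per site, 5 with limma, 0 with the 2 stages alone and 17 without the X-measure libraries. For Type7 against Type6 (6), they were 3 with 10 reads, 11 with all listed sites and 0 with the 2 stages alone. Leaving out 1 library gave 29 to 77, 6 to 31, 3 to 8 and 1 to 7 called tiles in these 4 comparisons.

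For Type7 against Type1 (7), Type5b against Type5a (3) and Type6 against Type5b (1), the windows called were 3, 1 and 0 with 10 reads and 1, 0 and 0 with 3 sites. Pooled reads gave 4 in Type7 against Type1 and 1 in Type5b against Type5a. Without the X-measure libraries, Type5b against Type5a gave 5 and Type6 against Type5b 0. Leaving out 1 library gave 5 to 6, 2 to 4 and 0 to 1. Relative to the autosomes, Type7 against Type1 (7) gave 4 with 10 reads and 2 with 3 sites, and Type5b against Type5a (2) gave 1 with 10 reads, 0 with 3 sites and 4 without the X-measure libraries. Type7 against Type6 (0) gave 1 with 10 reads and 1 by deviation from tile means. Leaving out 1 library gave 5 to 7 and 1 to 3 in the first 2 of these.

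The cluster differences of Type7 over Type1 were 98.0 points on chromosome 2 over the 1 tile measured in every library and 40.1 without repeated tiles, 4.00 (pooled reads) and 23.7 (without repeated tiles) on chromosome 4, and 6.69 on chromosome 13 with pooled reads. Leaving out 1 library gave 20.5 to 30.2, 12.0 to 18.7 and 10.1 to 15.7 points on chromosomes 2, 4 and 13. Same-numbered libraries did not deviate together (correlations from -0.01 to 0.033), which gave no sign that the numbers pair the samples. These correlations of single tiles could miss a shared animal or batch, and Type5b against Type5a had only 1 such pair, so pairing is not excluded. With a replicate block, 12 tiles (limma), 1 window and 1 window relative to the autosomes were called in Type5b against Type5a, and 3 tiles in Type7 against Type6. The cause of these changes was not tested.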
